A study of Mus musculus with 12 samples.

Results

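The genes described here are *Trp53*, which encodes p53, its inhibitors *Mdm2* and *Mdm4*, and 7 classical targets of p53, namely *Cdkn1a*, *Ccng1*, *Bax*, *Bbc3*, *Sesn1*, *Sesn2* and *Phlda3*. They were taken by gene symbol through their Ensembl IDs, and these 10 genes are among 37991 counted. Each of the 10 matched a single ID, and all passed the filter on low counts that left 16399 genes to test. p53 is a transcription factor that is held at a low level in unstressed cells and accumulates after DNA damage and other stress. Mdm2 is the ubiquitin ligase that marks p53 for degradation and is itself a p53 target. Mdm4 is a relative of Mdm2 that binds p53, blocks its activation of genes and pairs with Mdm2. The targets halt the cell cycle, start apoptosis or adapt metabolism. *Gadd45a*, the gene deleted in these mice, also belongs to the p53 response.

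Hippocampi were collected 1 h after the passive avoidance (PA) test, in which mice learn to avoid a compartment where they received a foot shock. Heterozygous *Gadd45a*-deficient mice had been interbred, and 6 *Gadd45a*-/- mice and 6 wild-type siblings, all on the C57BL/6N strain and 6 to 7 months old by the labels, each gave 1 poly(A) RNA library (groups Gadd45a-KO and Wildtype). The methods of the study give a younger age range for its adult male mice. The deletion is in the germline, with the first exons replaced by a neomycin resistance cassette, so that every cell of the body carries it. All animals of both groups were trained, and no untrained animals were analysed here. Libraries held 44594261 to 55540601 reads on genes. Values are CPM, read counts relative to each library's total on genes, with TMM scaling between libraries. For each gene edgeR's quasi-likelihood test was used, with Benjamini-Hochberg adjustment over all tested genes and a threshold of 1% FDR. SE is the standard error of the log2 fold change, and a positive log2 fold change is higher in the libraries labelled Gadd45a-KO.

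The targeted gene went against its label. *Gadd45a* had 102 to 154 reads in the libraries labelled Wildtype and 946 to 1179 in those labelled Gadd45a-KO, so that the log2 fold change was 3.06 (SE 0.09, adjusted p = 1.33e-10 from edgeR). Counts per gene do not separate the replaced exons from the rest, so that exchanged labels and reads from what remains of the allele cannot be told apart here. Libraries are therefore named by label, and every direction below rests on these labels. Summed thalamic markers stood at 270 and 368 CPM in Gadd45a-KO replicates 2 and 3 and between 63.8 and 107 CPM in the other 10 libraries. Summed oligodendrocyte markers stood at 7311 CPM in Gadd45a-KO replicate 3 and between 2317 and 3738 CPM in the other 11. Of the 6 thalamic and the 6 oligodendrocyte markers tested, none passed 1% FDR with edgeR or DESeq2. In edgeR, 5 and 6 of them, all higher, had an unadjusted p under 0.05, where 4.34% of all tested genes were higher. All 8 hippocampal neuron markers with a single ID were detected, and their sum lay between 928 and 1029 CPM in the libraries labelled Wildtype. It was below that range in Gadd45a-KO replicates 2, 3 and 5, at 881, 850 and 820 CPM, and between 979 and 1016 CPM in the other 3 of that label. Of these 8 markers, 0 passed 1% FDR with edgeR or DESeq2. At an unadjusted p under 0.05 in edgeR, 0 were lower and 0 higher, where 9.35% and 4.34% of all tested genes were. Their log2 fold changes were below 0 for 5 and above 0 for 3, so that the sum does not describe each marker. The share of reads that fell on no gene also differed without overlap, at 12.64% to 13.9% under the Wildtype label and 11.5% to 12.57% under the Gadd45a-KO label, and its part in the differences below was not tested. No gene of the other marker lists, for neurons, astrocytes, oligodendrocyte precursors, microglia, vessels, choroid plexus, ependyma and blood, passed 1% FDR. At an unadjusted p under 0.05 in edgeR, 3 of 7 vessel, 2 of 6 astrocyte and 1 of 6 choroid plexus markers were higher. All 7 vessel, 6 astrocyte, 7 microglia and 4 ependyma markers had log2 fold changes above 0, and all 3 blood markers below 0. The median over all tested genes was 0.00. Some of these values were small, running from 0.005 to 0.21 for astrocyte and from 0.03 to 0.13 for microglia markers. The part of tissue content in the differences below was not tested. In bulk tissue, fewer cells of a type and less RNA per cell cannot be told apart.

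p53 binds a consensus of 2 half-sites of 10 bases each. The best match to this consensus without a gap between the half-sites was searched within 3000 bases on either side of each gene's annotated 5′ end in the NCBIM37 genome, the build of the counts. The sequences shown are best matches within this window. Where matches tied, the one closest to the annotated 5′ end is shown, as for *Ccng1*, which had 2 equally good matches. Binding of p53 was not measured, and sites further away or with a gap were not searched. They are written 5′ to 3′ on the gene's strand, and capitals mark the 4 central bases of each half-site, which had to begin with C and end with G. The consensus reads the same on both strands.
*Cdkn1a*, chr17:29227873-29227892, plus strand: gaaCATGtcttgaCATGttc
*Ccng1*, chr11:40568964-40568983, minus strand: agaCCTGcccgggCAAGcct
*Bax*, chr7:52721944-52721963, minus strand: gggCAGGcccgggCTTGtcg
*Mdm2*, chr10:117147161-117147180, minus strand: ggtCAAGttgggaCACGtcc
*Bbc3*, chr7:16894835-16894854, plus strand: ctgCAAGccccgaCTTGtcc
*Mdm4*, chr1:134924097-134924116, minus strand: aggCTTGcaccacCATGccc
The matches of *Cdkn1a* and *Ccng1* followed the consensus at 19 of 20 bases, as did the best match of 0.990% of the 16365 tested genes that could be scanned. *Bax* followed it at 18 bases, which 6.40% of the scanned genes reached. *Mdm2*, *Bbc3*, *Trp53* and *Mdm4* followed it at 17 bases, which 26.6% of the scanned genes reached, so that a match of this quality is common. The centre of the match lay 643 bases into the gene for *Mdm2*, 41 bases before the annotated 5′ end for *Cdkn1a* and 2164 bases before it for *Mdm4*. This end is the outermost over all annotated transcripts of a gene, and the start in use in this tissue was not determined. *Sesn2* and *Phlda3* had 16 matching bases and *Sesn1* 15 in this window, which 64.5% and 92.5% of the scanned genes reached.

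*Mdm4* was lower in the libraries labelled Gadd45a-KO, and the other 9 genes did not pass the test. Among all tested genes, 2.62% were called lower and 0.0244% higher. Of the 10 genes, 1 was called lower and 0 higher, and these counts were also found at an unadjusted p under 0.05 in edgeR, where 9.35% of all tested genes were lower and 4.34% higher. DESeq2 gave the same counts at 1% FDR, with 3.77% of its tested genes lower and 0.108% higher. The log2 fold changes of the other 9 lay between -0.20 and 0.16, with adjusted p-values from 0.620 to 0.994 in edgeR. Their 95% intervals reached from -0.51 at the lowest bound, for *Bbc3*, to 0.44 at the highest, for *Phlda3*. The median over the 10 genes was -0.01, and that of all tested genes was 0.00.

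**Figure D1:**
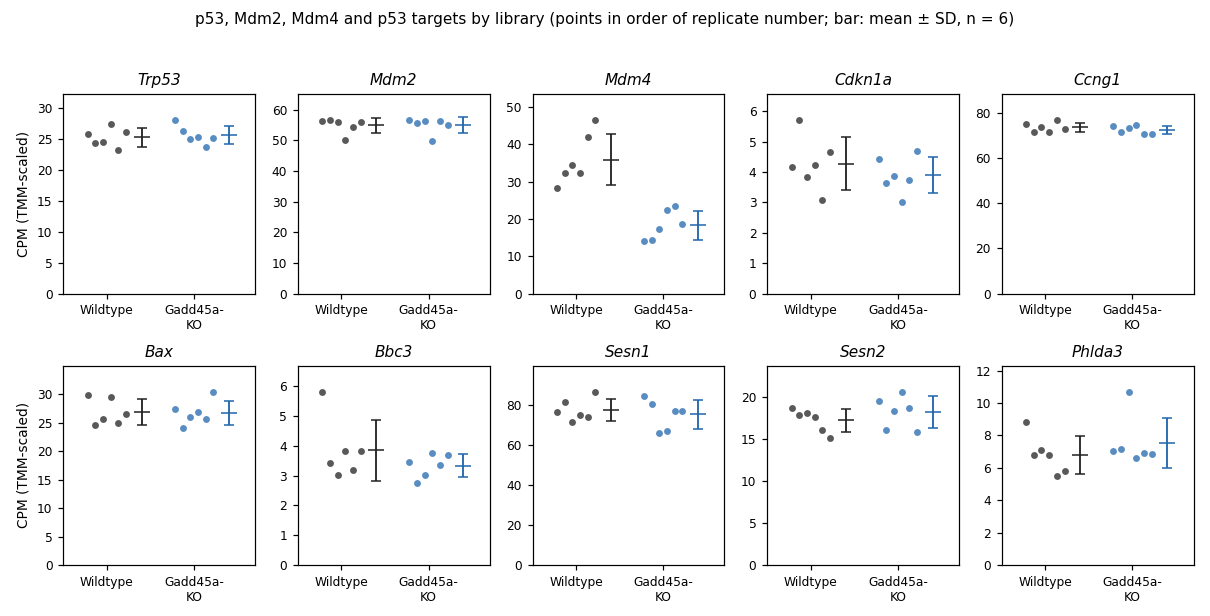
CPM of p53, Mdm2, Mdm4 and 7 p53 targets in each library, on axes that start at 0, with black points for libraries labelled Wildtype and blue points for Gadd45a-KO, ordered by replicate number, and bars for the mean ± SD (n = 6). *Mdm4* is the panel in which the labels stand apart, with 28.2 to 46.4 CPM against 14.0 to 23.4 CPM.

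*Mdm4* (ENSMUSG00000054387) is encoded on chromosome 1 of NCBIM37, minus strand, from 134886422 to 134921943. In the libraries labelled Wildtype it had 28.2 CPM at the lowest, 33.4 at the median and 46.4 at the highest, from 1281 to 2324 reads. In those labelled Gadd45a-KO it had 14.0, 18.0 and 23.4 CPM, from 651 to 1085 reads. The labels did not overlap, and every library labelled Gadd45a-KO lay below every library labelled Wildtype, as 3.12% of all tested genes did. The means were 35.9 ± 6.87 CPM (SD, n = 6) and 18.3 ± 3.93 CPM (SD, n = 6), and the log2 fold change was -0.97 (SE 0.14, 95% interval -1.28 to -0.67, adjusted p = 0.000890 from edgeR). This is a level 0.510 times that of the libraries labelled Wildtype. By log2 fold change *Mdm4* was the 72nd lowest of all tested genes. Without Gadd45a-KO replicates 2 and 3, in which thalamic markers were high, it was -0.88 (adjusted p = 0.00708 from edgeR). The lowest *Mdm4* values were those of Gadd45a-KO replicates 1 and 2, at 14.0 and 14.3 CPM, which had 101 and 270 CPM of thalamic markers. The part of tissue content in the difference of *Mdm4* was not tested.

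*Mdm2* (ENSMUSG00000020184), the paralog of *Mdm4*, lies on the minus strand of chromosome 10 from 117125944 to 117147814. It had 50.1 CPM at the lowest, 56.0 at the median and 56.5 at the highest in the libraries labelled Wildtype, and 49.8, 56.0 and 56.5 CPM in those labelled Gadd45a-KO. The ranges nearly coincided, and replicate 4 was the lowest library in both groups. The log2 fold change was 0.00 (SE 0.04, 95% interval -0.08 to 0.09, adjusted p = 0.994 from edgeR).

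The reads of both paralogs were then set against each other within each library, which needs no scaling between libraries. The ratio of *Mdm4* to *Mdm2* reads ran from 0.502 to 0.828 in the libraries labelled Wildtype and from 0.247 to 0.448 in those labelled Gadd45a-KO, without overlap. The difference in mean log2 ratio was -0.98 (SE 0.18, p = 0.00216 in a two-sided exact permutation test, below which 6 libraries against 6 cannot go). Adjusted over the 2 paralog ratios examined, p was 0.00433. Since *Mdm2* hardly differed between the labels, this ratio restates the difference of *Mdm4* and is not separate evidence. For the sestrins *Sesn1* and *Sesn2*, the difference in log2 ratio was -0.12 (SE 0.13, two-sided exact permutation test, p = 0.355, adjusted p = 0.355).

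**Figure D2:**
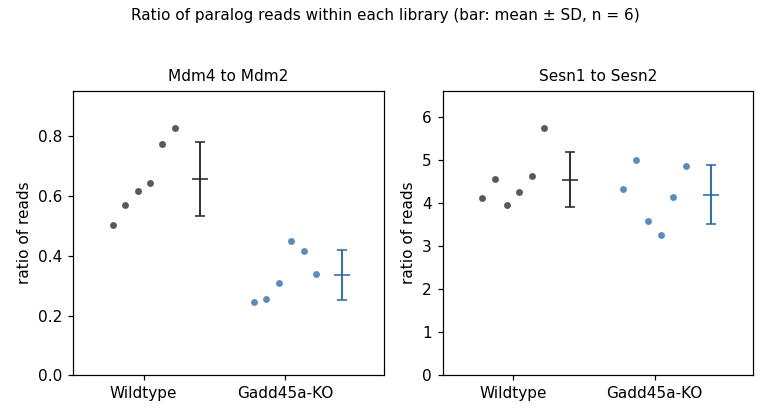
Ratio of *Mdm4* to *Mdm2* reads (left) and of *Sesn1* to *Sesn2* reads (right) in each library, with axes from 0, black points for libraries labelled Wildtype, blue points for Gadd45a-KO and bars for the mean ± SD (n = 6). The *Mdm4* to *Mdm2* ratio does not exceed 0.448 in any library labelled Gadd45a-KO, while the ratios of *Sesn1* to *Sesn2* overlap, at 3.96 to 5.76 and 3.25 to 5.00.

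*Trp53* (ENSMUSG00000059552) itself lies on the plus strand of chromosome 11 from 69393861 to 69405375. It had 23.2 CPM at the lowest, 25.1 at the median and 27.4 at the highest in the libraries labelled Wildtype, and 23.7, 25.2 and 28.0 CPM in those labelled Gadd45a-KO. The groups overlapped over almost their whole ranges. The log2 fold change was 0.02 (SE 0.05, 95% interval -0.08 to 0.12, adjusted p = 0.927 from edgeR). These are mRNA levels, and p53 protein, which is controlled mainly by degradation, was not measured in these libraries.

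Among the targets that act on the cell cycle, *Cdkn1a*, which encodes the cyclin-dependent kinase inhibitor p21, had 3.06 CPM at the lowest, 4.19 at the median and 5.70 at the highest in the libraries labelled Wildtype. In those labelled Gadd45a-KO it had 3.00, 3.79 and 4.69 CPM. It lies on the plus strand of chromosome 17 from 29227924 to 29237667, and its log2 fold change was -0.13 (SE 0.14, 95% interval -0.42 to 0.16, adjusted p = 0.780 from edgeR). Without Wildtype replicate 2, the library with its highest value, it was -0.02. *Ccng1*, which encodes cyclin G1, was the steadiest of the 10 genes. It lies on the minus strand of chromosome 11 from 40562054 to 40568813 and had 71.5 to 76.8 CPM in the libraries labelled Wildtype and 70.6 to 74.6 CPM in those labelled Gadd45a-KO. With a log2 fold change of -0.02 (SE 0.03, 95% interval -0.08 to 0.04, adjusted p = 0.847 from edgeR), it also had the narrowest interval.

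Among the targets that act in apoptosis, *Bax*, which encodes a protein that permeabilizes the outer mitochondrial membrane, had 24.7 to 29.9 CPM in the libraries labelled Wildtype and 24.1 to 30.4 CPM in those labelled Gadd45a-KO. It lies on the minus strand of chromosome 7 from 52717065 to 52722268. Its log2 fold change was -0.01 (SE 0.06, 95% interval -0.14 to 0.13, adjusted p = 0.986 from edgeR). *Bbc3*, which encodes the BH3-only protein PUMA, lies on the plus strand of the same chromosome from 16894965 to 16903554. It had 3.01 CPM at the lowest, 3.63 at the median and 5.81 at the highest in the libraries labelled Wildtype, and 2.75, 3.41 and 3.74 CPM in those labelled Gadd45a-KO. The highest value was that of Wildtype replicate 1 and stood apart from the other libraries. The log2 fold change was -0.20 (SE 0.14, 95% interval -0.51 to 0.11, adjusted p = 0.620 from edgeR), and without Wildtype replicate 1 it was -0.04. *Phlda3*, which encodes a PH-domain protein that competes with Akt for membrane lipids, lies on the plus strand of chromosome 1 from 137662696 to 137665713. It had 5.48 CPM at the lowest, 6.78 at the median and 8.82 at the highest in the libraries labelled Wildtype, and 6.60, 7.00 and 10.7 CPM in those labelled Gadd45a-KO. The difference on the log2 scale was 0.16 (SE 0.13, 95% interval -0.13 to 0.44, adjusted p = 0.702 from edgeR). The highest value was that of Gadd45a-KO replicate 3, the library with 7311 CPM of oligodendrocyte markers, whose part in it was not tested. Without that library the log2 fold change was 0.04.

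The sestrins restrain the kinase complex mTORC1 under stress. *Sesn1* lies on the plus strand of chromosome 10 from 41530380 to 41628230 and had 71.7 to 86.6 CPM in the libraries labelled Wildtype and 65.9 to 84.6 CPM in those labelled Gadd45a-KO. The difference on the log2 scale was -0.04 (SE 0.06, 95% interval -0.18 to 0.09, adjusted p = 0.857 from edgeR). *Sesn2* lies on the minus strand of chromosome 4 from 132047947 to 132066416 and had 15.0 to 18.6 CPM against 15.8 to 20.6 CPM. Its log2 fold change was 0.08 (SE 0.07, 95% interval -0.07 to 0.23, adjusted p = 0.735 from edgeR), and the ranges overlapped. None of the 10 genes lies on chromosome 6, which carries *Gadd45a*.

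**Figure D3:**
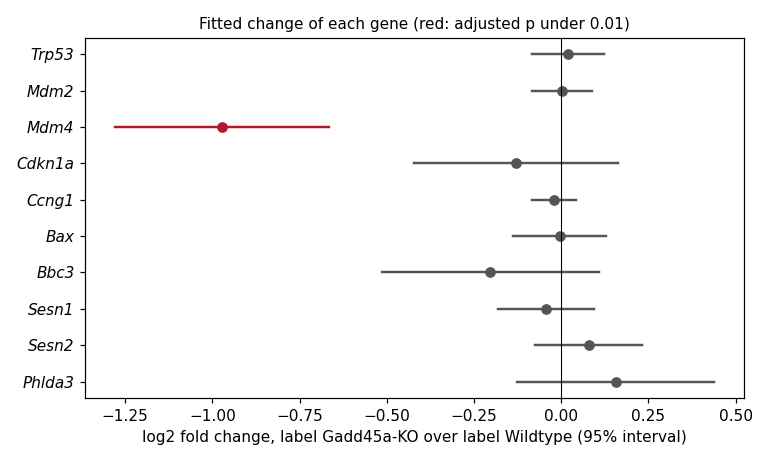
Log2 fold change of each gene with its 95% interval from the edgeR fit, on a linear axis, in red where the adjusted p was under 0.01. The interval of *Mdm4* runs from -1.28 to -0.67, and those of the other 9 genes all include 0.

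Between genes, levels were compared as CPM per kb of annotated exon. In the libraries labelled Wildtype, *Sesn1* (23.3 ± 1.65 CPM per kb, SD, n = 6), *Ccng1* (21.0 ± 0.594) and *Bax* (20.04 ± 1.73) stood highest, and the ranges of neighbours in this order overlapped. *Mdm2* (10.8 ± 0.483) and *Mdm4* (10.2 ± 1.96) followed, with ranges that overlapped at this measure of length. *Trp53* came next at 6.24 ± 0.374 CPM per kb, apart from *Mdm4* above and from *Sesn2* (4.95 ± 0.397) below. *Phlda3* (4.36 ± 0.754) overlapped with *Sesn2*. *Cdkn1a* (1.92 ± 0.395) and *Bbc3* (1.92 ± 0.507) were lowest and did not differ beyond their spread. In the libraries labelled Gadd45a-KO, *Mdm4* was at 5.22 ± 1.12 CPM per kb, below *Trp53* (6.32 ± 0.356) and with a range that overlapped those of *Trp53*, *Sesn2* (5.23 ± 0.540) and *Phlda3* (4.85 ± 0.995). The order of the other 9 genes by their means was the same under both labels. These levels depend on the exon models used. With the longest annotated transcript as the length, *Mdm2* was at 17.5 ± 0.782 and *Mdm4* at 10.3 ± 1.97 CPM per kb (SD, n = 6) in the libraries labelled Wildtype, so that the levels of these paralogs were no longer alike. *Trp53* was then at 7.70 and *Bax* at 25.6 CPM per kb.

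**Figure D4:**
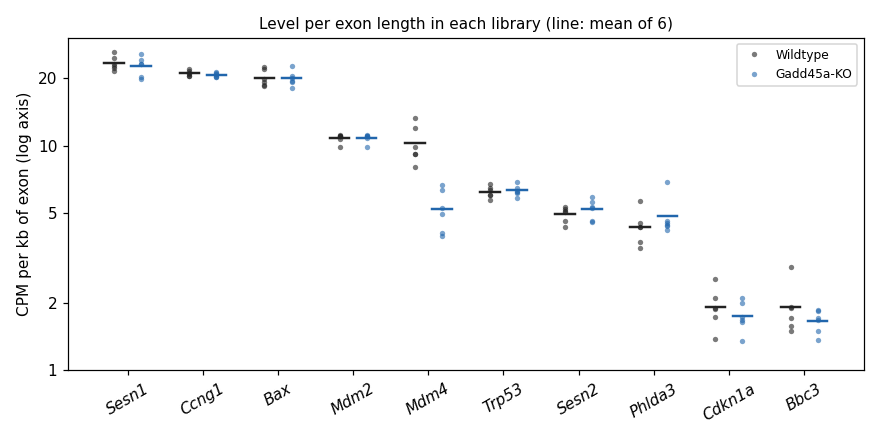
CPM per kb of annotated exon in each library on a log axis, with black points for libraries labelled Wildtype, blue points for Gadd45a-KO and lines for the mean of 6. With this length *Mdm4* and *Mdm2* stand at 10.2 and 10.8 CPM per kb under the first label, but at 10.3 and 17.5 with the longest transcript as length, and *Mdm4* stands at 5.22 CPM per kb of annotated exon under the second label.

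The genes also differed in how far libraries of a label lay from each other. *Mdm4* varied with a coefficient of variation of 19.1% among the libraries labelled Wildtype and 21.5% among those labelled Gadd45a-KO, where counting error alone gives 2.34% and 3.33%. The corresponding values of *Mdm2* were 4.46% and 4.67%, against 1.90% and 1.92% from counting. *Ccng1* had the lowest, at 2.83% and 2.42%, with 1.64% and 1.67% from counting. The low counts of *Cdkn1a* (146 to 256 reads) and *Bbc3* (125 to 264 reads) gave counting errors of 6.84% to 7.79%, and their observed spread ran from 11.7% to 26.4%. For these 2 genes and for *Phlda3*, with counting errors of 5.17% and 5.41%, the observed spread exceeded counting error, and changes smaller than the intervals above were not detectable.

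The 5 genes whose profile over the 12 libraries was most like that of *Mdm4* were *Tnks*, *Xpo4*, *Tnr*, *Rel* and *Zbtb37*. Likeness was measured as the mean absolute difference of log2 CPM, with each gene centred on its own mean. It was 0.08 for *Tnks*, which encodes the poly(ADP-ribose) polymerase tankyrase, and 0.09 for *Xpo4*, which encodes a nuclear transport receptor, with a median of 0.50 over all tested genes. For *Tnr*, which encodes the matrix protein tenascin R, *Rel*, which encodes an NF-κB subunit, and *Zbtb37*, which encodes a zinc finger protein, it was 0.11 to 0.14. *Tnks* had 71.3 CPM on average in the libraries labelled Wildtype and 37.2 CPM under the other label, a log2 fold change of -0.94 (SE 0.11, adjusted p = 0.000113 from edgeR). For *Xpo4* the log2 fold change was -0.96 (SE 0.11, adjusted p = 9.21e-05 from edgeR). *Tnr* and *Rel* did not pass 1% FDR (adjusted p = 0.0126 and 0.0118 from edgeR). Since these genes were chosen by the same libraries, their changes are a description.

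The other genes of the pathway were grouped by role. Of 32 regulators of p53 listed, 31 were tested, and 2 were lower and 0 higher at 1% FDR, which is 2 of 31 where 2.62% of all tested genes were called lower. Their median log2 fold change was -0.03, with 21 values below 0 and 10 above. At an unadjusted p under 0.05 in edgeR, 7 were lower and 1 was higher, where 9.35% of all tested genes were lower and 4.34% higher. With DESeq2 at 1% FDR, 3 were lower and 0 higher, where 3.77% of its tested genes were lower and 0.108% higher. Both genes that passed encode kinases of the DNA damage response that phosphorylate p53. *Atm*, which responds to double-strand breaks, ran from 15.9 to 21.0 CPM in the libraries labelled Wildtype, with a mean of 18.6 ± 1.84 (SD, n = 6). Under the Gadd45a-KO label it ran from 12.1 to 16.7 CPM, with a mean of 13.7 ± 1.62 (SD, n = 6). Of the latter, 5 of 6 lay below all the former, and the log2 fold change was -0.44 (SE 0.08, adjusted p = 0.00415 from edgeR). *Prkdc*, the catalytic subunit of the DNA-dependent protein kinase, had 37.7 to 44.0 CPM and 31.4 to 35.2 CPM. Its labels did not overlap, and 3.12% of all tested genes were likewise lower without overlap. The log2 fold change of *Prkdc* was -0.26 (SE 0.04, adjusted p = 0.00229 from edgeR).

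Both calls were lost under some alternatives. *Atm* no longer passed without Wildtype replicate 2, 3, 5 or 6 or without Gadd45a-KO replicate 1, 2, 4 or 6, with log2 fold changes from -0.44 to -0.40 and adjusted p-values from 0.0108 to 0.0173 in edgeR. *Prkdc* no longer passed without Gadd45a-KO replicate 6, at -0.25 (adjusted p = 0.0108 from edgeR). With a smooth offset for the annotated exon length of genes, the log2 fold change of *Prkdc* was -0.15 (adjusted p = 0.0462 from edgeR). Without Gadd45a-KO replicates 2 and 3 neither passed, at -0.40 for *Atm* (adjusted p = 0.0286 from edgeR) and -0.24 for *Prkdc* (adjusted p = 0.0207 from edgeR). Of the histone acetyltransferases and ligases on the list, *Ep300* reached an adjusted p of 0.0327 at a log2 fold change of -0.16 (SE 0.04, edgeR), where 4.43% of all tested genes were lower at 5% FDR. *Cdkn2a*, which encodes the Mdm2 inhibitor p19Arf, had 1 to 7 reads in a library and was not tested.

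**Figure D5:**
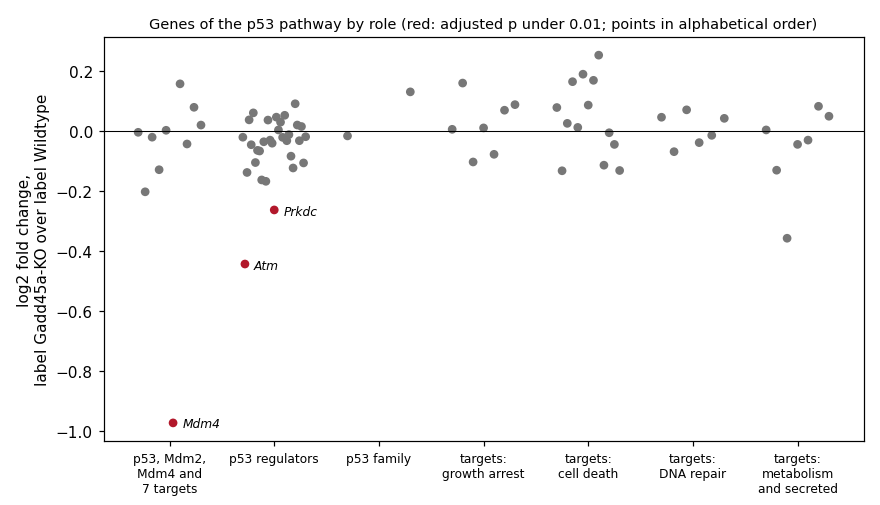
Log2 fold change of each tested gene of the p53 pathway, grouped by role on the horizontal axis and in alphabetical order within a group, in red where the adjusted p was under 0.01 in edgeR. *Mdm4*, *Atm* and *Prkdc* are the 3 red points, at -0.97, -0.44 and -0.26, and the 33 other p53 targets lie between -0.36 and 0.25.

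Of 34 further p53 targets, 33 were tested, and 0 were lower and 0 higher at 1% FDR in edgeR, as with DESeq2. Among all tested genes, 2.62% were lower and 0.0244% higher in edgeR, and 3.77% and 0.108% in DESeq2. At an unadjusted p under 0.05 in edgeR, 1 was lower and 0 were higher, where 9.35% of all tested genes were lower and 4.34% higher. Their median log2 fold change was 0.01, with 14 values below 0 and 19 above. Among the 7 genes of growth arrest, the largest difference was that of *Gtse1*, a regulator of p53 in the cell cycle, at 0.16 (SE 0.17, adjusted p = 0.783 from edgeR). Among the 13 genes of cell death, it was that of *Pmaip1*, which encodes the BH3-only protein NOXA, at 0.25 (SE 0.17, adjusted p = 0.579 from edgeR). For the 6 genes of DNA repair, log2 fold changes lay between -0.07 and 0.07, the latter for the translesion polymerase gene *Polh* (SE 0.07, adjusted p = 0.752 from edgeR). Among the metabolic and secreted targets, *Dram1*, which encodes a lysosomal membrane protein of autophagy, averaged 1.88 ± 0.265 CPM (SD, n = 6) under the Wildtype label and 1.47 ± 0.109 CPM (SD, n = 6) under the other. The difference on the log2 scale was -0.36 (SE 0.10, adjusted p = 0.0791 from edgeR), and 5 of 6 libraries labelled Gadd45a-KO lay below all those labelled Wildtype. *Gdf15*, a stress hormone gene, had 0 to 4 reads in a library and was not tested. Of the p53 family, *Trp63* had a log2 fold change of -0.02 and *Trp73* of 0.13 (SE 0.12, adjusted p = 0.745 from edgeR), and neither passed.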

How the data were processed

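Per the labels and methods, the authors sequenced stranded poly(A) libraries with single reads of 51 bases, aligned them with TopHat 1.4.1 to NCBIM37/mm9 and counted them per Ensembl gene with HTSeq 0.5.4p3 by strand. They deposited raw read counts, with no normalization and no pooling. Reads without a gene (12.64% to 13.9% in Wildtype and 11.5% to 12.57% in Gadd45a-KO), ambiguous reads (0.552% to 0.610%) and alignments that were not unique (11.5% to 12.9%) name no gene and were left out of totals. Genes were named and measured from an NCBIM37 annotation of an earlier Ensembl release, and 37205 of 37991 IDs matched a symbol.

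Groups came from the sample titles. Counts were filtered, TMM-scaled and tested without covariates in edgeR 4.0.16 (R 4.3.3). Standard errors were taken as the log2 fold change divided by the root of F. Log2 CPM used a prior count of 2. Exact permutation tests used scipy 1.17.1, and figures matplotlib 3.10.9. Alternatives were DESeq2 1.42.0, RLE factors, other filters, 5% FDR, a replicate block, a length offset and leaving out libraries. The length offset was a spline with 5 degrees of freedom over the annotated exon length of each gene. On simulated counts for the 6 against 6 comparison, edgeR recovered 177 of 200 genes changed by 1 on the log2 scale, with 0 others among 16303. No library was a copy of another of its label, since chi-square per degree of freedom was 9.12 to 40.6 between them. No source gives batches, and counting intervals cover counting error only.

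All genes of the p53 list and the targeted gene are named, with genes of the other lists at 1% FDR or, where none passed, the one with the largest change, and the 5 genes nearest in profile to *Mdm4*. *Ep300*, *Cdkn2a*, *Gdf15* and *Trp63* were named after their values were seen. The genes and lists were chosen with earlier results of these data known.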

Additional observations from a re-analysis of the deposited data

Results flagged for a closer look

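Over the 10 genes and *Gadd45a*, 22 groups of 6 libraries were examined for a value separated by a wide gap. This was found in 4 of them, where about 1.10 are expected by chance. In *Mdm2* it was Wildtype replicate 4, at 50.1 CPM against 54.3 to 56.5 CPM in the remaining 5 libraries (gap over range 0.645). Under the other label *Mdm2* was again lowest in replicate 4, at 49.8 CPM against 55.0 to 56.5 CPM (gap over range 0.766). In *Bbc3* it was Wildtype replicate 1, at 5.81 CPM against 3.01 to 3.84 CPM (gap over range 0.706). In *Phlda3* it was Gadd45a-KO replicate 3, at 10.7 CPM against 6.60 to 7.19 CPM (gap over range 0.858). Leaving out the library concerned changed no call for these 3 genes.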

How the results depend on the processing

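*Mdm4* passed, and no other of the 10 genes did, under all 21 alternatives, of which leaving out Gadd45a-KO replicates 2 and 3 was chosen after seeing the data. Its log2 fold change ranged from -1.04 to -0.88. The read ratio of *Mdm4* to *Mdm2* kept its direction under its 15 alternatives, from -1.07 to -0.90 with one library left out. Since the labels did not overlap in this ratio, leaving out libraries could not turn its direction. The replicate block leaves its mean difference unchanged by construction. Libraries share replicate numbers, and no source says whether these mark pairs or batches. In 5 of 6 numbers the same-numbered libraries deviated together, with correlations of 0.103 to 0.262, and replicate 6 gave -0.0761. Mean correlations with other numbers lay between -0.0681 and 0.0213. The same-numbered library was the closest match only for replicate 3. Whether the numbers pair the libraries is therefore not settled, and the main test left them out. With the replicate block, *Mdm4* was at -0.98 (adjusted p = 0.000282 from edgeR), the *Mdm4* to *Mdm2* ratio at -0.98 (exact sign-flip permutation p = 0.0312, the smallest possible and not adjusted over the 2 ratios, so that 1% cannot be reached) and 509 genes were lower and 5 higher among all genes, against 430 and 4 without it.

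Over all genes, 661 were lower and 19 higher with DESeq2, 253 and 11 with the length offset, 12 higher with the length offset and the block, and 726 and 20 at 5% FDR. Leaving out one library gave 239 to 467 lower and 3 to 4 higher, and leaving out Gadd45a-KO replicates 2 and 3 gave 199 lower. Of the regulators, 1 was lower with the length offset, with or without the block, 0 without Gadd45a-KO replicates 2 and 3, and 0 to 2 with one library left out. The sign of values near 0 turned for *Bax*, at 0.000634 with RLE, 0.00168 without a filter, 0.00205 with at least 10 reads in every library, 0.000442 with DESeq2 and 0.0404 without Gadd45a-KO replicates 2 and 3, for *Mdm2* at -0.0123 in the latter, and with one library left out for *Bax* (-0.0356 to 0.0381), *Mdm2* (-0.0152 to 0.0360) and *Trp53* (-0.000527 to 0.0529). Per kb of the longest transcript, *Trp53* was at 7.70, *Mdm2* at 17.5 and *Bax* at 25.6 CPM. Spread between libraries beyond counting error limits *Cdkn1a*, *Bbc3* and *Phlda3*.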
